A study of Homo sapiens with 2 samples.

Results

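Single-cell levels of 6 intermediate filament genes were described in 2 libraries of H9, an established line of human embryonic stem cells held in a naive-like state. The genes were KRT7, KRT8, KRT18, KRT19, VIM and LMNA, which are 6 of the 36601 genes in the deposited tables. They were found by symbol in both tables, and all 6 were measured. A barcode counted as a cell when it had 1000 or more detected genes and less than 20% of their UMIs (unique molecular identifiers, each standing for 1 counted transcript) from mitochondrial genes (MT-).

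The cells, in RSeT medium for naive-like culture, received 25 nM of a fluorescein-tagged oligonucleotide, SO-L1 or ASO-L1. In the study these are a sense control and an antisense oligonucleotide against RNA of the LINE1 transposon. Both groups then had 10 nM DZNep, which blocks S-adenosylhomocysteine hydrolase and lowers PRC2 marks, and 5 nM TSA, a histone deacetylase inhibitor. For the first 24 hours both also had 3 agents that aid survival: 10 µM Y-27632, 5 µM emricasan and 0.7 µM Trans-ISRIB. Tagged cells were sorted at 48 hours, so both groups hold cells that took up an oligonucleotide, and each group is 1 library from 1 cell line without a replicate. Differences below are therefore differences between these 2 libraries. No spread between cultures can be given, and all intervals are 95% intervals of counting error only.

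Intermediate filaments are the rope-like part of the cytoskeleton. KRT8 and KRT7 are type II keratins and KRT18 and KRT19 type I keratins, and a keratin filament needs a partner of each type. KRT8 with KRT18 is the pair of simple, single-layered epithelia and is also the keratin pair of the early embryo and of pluripotent stem cells. KRT7 and KRT19 join it in many simple epithelia, among them trophoblast. VIM encodes vimentin, the type III filament typical of mesenchymal cells, which undifferentiated stem cells also carry. LMNA encodes lamins A and C, which line the inside of the nuclear membrane and are low in pluripotent cells compared with most differentiated cells.

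On GRCh38, in GENCODE 29, KRT7 (ENSG00000135480) lies at chr12:52232520-52252186 on the plus strand. KRT8 (ENSG00000170421) lies at chr12:52897187-52949954 on the minus strand, and its annotated span overlaps KRT18 (ENSG00000111057) at chr12:52948871-52952901 on the plus strand. KRT19 (ENSG00000171345) lies at chr17:41523617-41528308 on the minus strand. VIM (ENSG00000026025) lies at chr10:17228259-17237593 on the plus strand, where the antisense gene VIM-AS1 overlaps its start. LMNA (ENSG00000160789) lies at chr1:156082573-156140089 on the plus strand. GENCODE names 68 pseudogenes for KRT18, 50 for KRT8, 5 for KRT19 and 1 for VIM, and the deposited tables list none of them. The levels of these genes are uncertain to the extent that reads matched a copy.

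VIM and LMNA were the members that were higher in the ASO-L1 library in both classes of cells described below, so the bases before their starts are shown. RefSeq's promoter table on GRCh38.p14 held windows for VIM, KRT8 and LMNA, and none for KRT7, KRT18 or KRT19. The VIM stretch is chr10:17227991-17228240, and the LMNA stretch is chr1:156082323-156082572, before the most upstream of 3 LMNA starts in the table. Capitals mark GGGCGG or its reverse complement, a core of GC boxes to which Sp1 and KLF factors bind.
VIM: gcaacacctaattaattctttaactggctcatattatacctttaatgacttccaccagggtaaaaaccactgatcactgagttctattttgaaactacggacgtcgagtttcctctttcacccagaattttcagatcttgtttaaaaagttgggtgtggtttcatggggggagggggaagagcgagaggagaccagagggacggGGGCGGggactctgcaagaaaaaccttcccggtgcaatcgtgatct
LMNA: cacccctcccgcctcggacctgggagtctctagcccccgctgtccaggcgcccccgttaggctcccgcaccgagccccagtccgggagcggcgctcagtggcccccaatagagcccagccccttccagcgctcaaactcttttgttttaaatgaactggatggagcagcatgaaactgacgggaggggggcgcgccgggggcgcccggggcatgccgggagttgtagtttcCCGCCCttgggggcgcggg
Each stretch held 1 match to GGGCGG, searched on both strands, and 42.6% of the 35116 windows of 250 bases in the table held at least 1. The windows before the other LMNA starts held 1 and 2, and which start these cells use was not measured. Neither held TGANTCA, the AP-1 core, found in 6.57% of windows, nor TATAAA, found in 10.7%. G and C made up 46% of the VIM stretch and 68.8% of the LMNA stretch. A match describes the letters only, and binding was not measured.

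The cell filter kept 6553 of 13070 SO-L1 barcodes and 9084 of 11659 ASO-L1 barcodes, with medians of 42314 and 53959.5 UMIs. The MT- share fell into separate ranges, and cells were split at 2%. Low-mitochondrial cells, below 2%, made up 28.3% of SO-L1 (1857 cells) and 27.9% of ASO-L1 (2531 cells), and the others, called ordinary here, numbered 4696 and 6553. Between 1% and 3% lay 178 SO-L1 and 363 ASO-L1 cells. Of the 14 pluripotency markers listed, none was at 0 in any class. Levels are in CPM, a gene's UMIs over the cells of a group scaled to 1000000 non-mitochondrial UMIs, and their summed level was 5861 and 5207 CPM in ordinary SO-L1 and ASO-L1 cells, against 4456 and 2585 in low-mitochondrial cells. The libraries shared 6105 barcode sequences, 274 of them kept in both. A sequence also deposited in the other library was carried by 1062 kept SO-L1 and 5308 kept ASO-L1 cells, and 253 SO-L1 and 3 ASO-L1 cells had over 10 times more UMIs under that sequence in the other library. Shared sequences lay among the deepest ASO-L1 cells, at 98.7% of low-mitochondrial cells with 60000 or more non-mitochondrial UMIs and 0.418% of those under 15000. Leaving out the 253 and 3 cells changed no call between libraries, between classes or for marker cells over all depths, and it changed the VIM call in both classes among cells under 15000 non-mitochondrial UMIs, given below. Leaving out every shared sequence removed most deep ASO-L1 cells and changed several calls, which are given where they occur.

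The 3-prime counting gives 1 UMI per captured transcript whatever its length. The widest counting interval of a member's level was ±14.7% of the level for KRT7 and ±2.04% for the other members. A ratio was called when it was at least 1.5-fold from 1 and its exact conditional binomial (Clopper-Pearson) interval excluded 1, among genes with at least 100 UMIs in the groups compared.

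**Figure D1:**
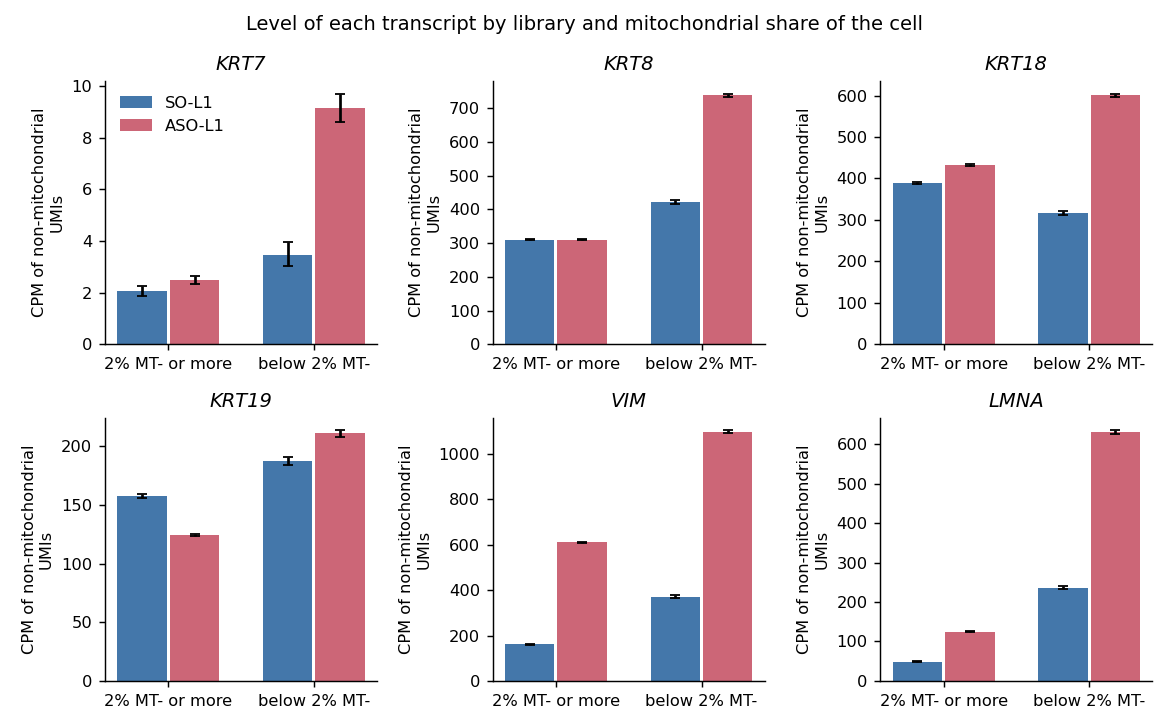
Level of each gene, in CPM (of non-mitochondrial UMIs), in ordinary cells (2% MT- or more) and low-mitochondrial cells (below 2% MT-) of the SO-L1 (blue) and ASO-L1 (red) libraries, with 95% Poisson counting intervals. VIM and LMNA stand higher in ASO-L1 in both classes, while KRT8 stands at 311 and 310 in ordinary cells and at 423 and 739 in low-mitochondrial cells.

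Between the libraries, VIM and LMNA stood apart from the keratins. Over all kept cells VIM was at 211 CPM in SO-L1 and 729 in ASO-L1, a ratio of 3.46 (3.43 to 3.49). LMNA was at 92.2 and 248, a ratio of 2.69 (2.65 to 2.73). KRT7, the least detected member with 606 and 1926 UMIs in all, was at 2.39 and 4.10, a ratio of 1.71 (1.56 to 1.88). These 3 members were called higher in ASO-L1 and none lower. Of the 22850 genes measured, 16% were called higher and 18% lower, and the median log2 ratio was 0.56 over the members and -0.04 over all genes.

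The simple-epithelium pair differed less. KRT8 had a ratio of 1.23 (1.22 to 1.24), from 337 to 415 CPM, and KRT18 one of 1.27 (1.26 to 1.28), from 372 to 473. KRT19, at 165 and 145, had a ratio of 0.882 (0.872 to 0.893). None of these passed 1.5-fold, although their counting intervals excluded 1. With the cells weighted equally the KRT7 ratio was 1.44, and without shared barcode sequences it was 1.07 (0.924 to 1.23), so the KRT7 call does not hold under either. LMNA kept its call without shared sequences, at a smaller ratio of 1.68.

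In ordinary cells the difference lay in VIM and LMNA alone among the members. VIM was at 162 CPM in SO-L1 and 611 in ASO-L1, a ratio of 3.77 (3.73 to 3.82), and LMNA at 48.4 and 125, a ratio of 2.58 (2.53 to 2.64). The 4 keratins were not called. KRT8 was at 311 and 310, a ratio of 0.998 (0.989 to 1.01). KRT18 was at 389 and 432 (ratio 1.11), KRT19 at 158 and 124 (0.788), and KRT7 at 2.06 and 2.48 (1.20, interval 1.07 to 1.36). The background in ordinary cells was 12.2% of 21479 genes higher and 15.7% lower.

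In low-mitochondrial cells 5 of the 6 members were called higher in ASO-L1, where 22.9% of 19163 genes were higher and 24.9% lower. VIM was at 372 and 1099 CPM (ratio 2.95, interval 2.91 to 3.0). LMNA was at 236 and 631 (2.67, 2.62 to 2.72), and KRT7 at 3.47 and 9.14 (2.63, 2.27 to 3.07). The keratin pair was now also higher. KRT18 was at 316 and 600 (1.90, 1.87 to 1.93) and KRT8 at 423 and 739 (1.75, 1.72 to 1.77). KRT19 was at 188 and 211 (1.12, 1.10 to 1.15) and was not called. Between libraries, the keratin pair thus differed by over 1.5-fold among low-mitochondrial cells and by less among ordinary ones.

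**Figure D2:**
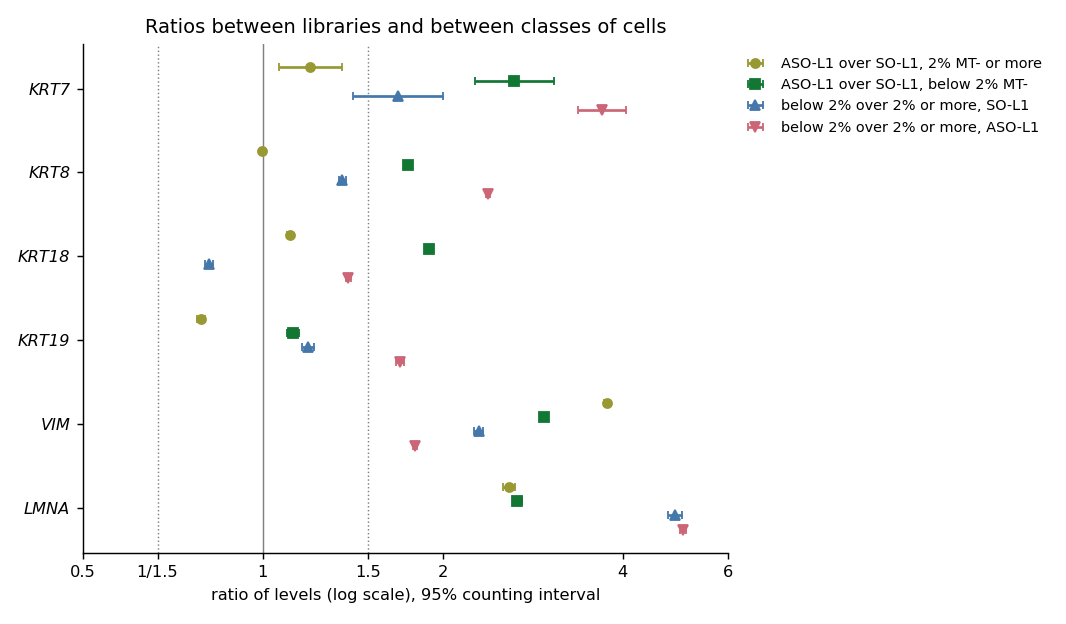
Ratios of levels on a log scale with 95% counting intervals, for ASO-L1 over SO-L1 in ordinary cells (circles) and low-mitochondrial cells (squares), and for low-mitochondrial over ordinary cells in SO-L1 (triangles up) and ASO-L1 (triangles down). Dotted lines mark 1.5-fold either way. VIM and LMNA lie right of 1.5 in all 4 comparisons, and KRT18 lies left of 1 for low-mitochondrial over ordinary cells in SO-L1 at 0.813 and right of it in ASO-L1 at 1.39.

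The low-mitochondrial difference moved with the depth of the cells. ASO-L1 had 28.4% of its low-mitochondrial cells at 60000 or more non-mitochondrial UMIs, and SO-L1 had 6.25%. In these deep ASO-L1 cells VIM was at 1407 CPM, against 878 in cells of 30000 to under 60000, 415 in cells of 15000 to under 30000 and 286 below that. In SO-L1 the same ranges from deep to shallow gave 313, 388, 427 and 191. VIM levels thus followed depth in ASO-L1 low-mitochondrial cells and did not in SO-L1.

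The ratio of the libraries at matched depth differed accordingly. For VIM it was 4.49 (4.32 to 4.67) in the deepest range, 2.26 (2.22 to 2.30) in the next, 0.973 (0.924 to 1.02) at 15000 to under 30000, and 1.496 (1.35 to 1.66) in the shallowest, just under the fold. Without cells that had over 10 times more UMIs in the other library, the shallowest range kept 427 of its 468 SO-L1 cells and all but 1 of its 479 ASO-L1 cells, and VIM there was at 1.72 (1.55 to 1.93) and was called higher. No member's ratio in the other ranges changed without those cells. For KRT18 the ratios in the same order were 2.18, 1.44, 0.759 (0.710 to 0.811) and 1.01 (0.910 to 1.13), and for KRT19 they were 1.44, 0.972, 0.562 (0.512 to 0.617) and 0.836. Both keratins changed side of 1 with depth.

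KRT8 and LMNA did not change side. KRT8 had ratios of 2.01, 1.44, 1.49 and 1.57 from deep to shallow, and LMNA 2.72, 2.42, 1.60 and 2.33. KRT7 had ratios of 2.36 and 2.69 in the upper ranges, and in the lower ranges, with 13 to 38 UMIs a group, 0.937 (0.572 to 1.53) and 1.05 (0.468 to 2.41). Without every shared sequence the low-mitochondrial ratios were 1.35 (1.32 to 1.38) for VIM, 1.41 for KRT8, 0.912 (0.884 to 0.940) for KRT18 and 0.625 (0.597 to 0.654) for KRT19. LMNA at 1.90 and KRT7 at 1.68 kept their calls there. The depth ranges were chosen after the result without shared sequences was seen.

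In ordinary cells the VIM and LMNA differences were present across most of the range of depth. VIM ratios were 3.80 at 60000 UMIs or more, 3.68 at 30000 to under 60000 and 2.50 at 15000 to under 30000, and LMNA ratios 2.98, 1.94 and 3.07. The shallowest ordinary cells gave 1.05 (0.933 to 1.18) for VIM and 1.58 for LMNA. Of the 404 SO-L1 cells in that range, 215 had a sequence shared with ASO-L1. Without cells that had over 10 times more UMIs in the other library, 192 SO-L1 and 341 ASO-L1 cells were left there and the ratios were 1.86 (1.59 to 2.18) for VIM and 2.30 (1.85 to 2.89) for LMNA. Without every shared sequence, all ordinary cells together gave 4.83 for VIM and 2.32 for LMNA.

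**Figure D3:**
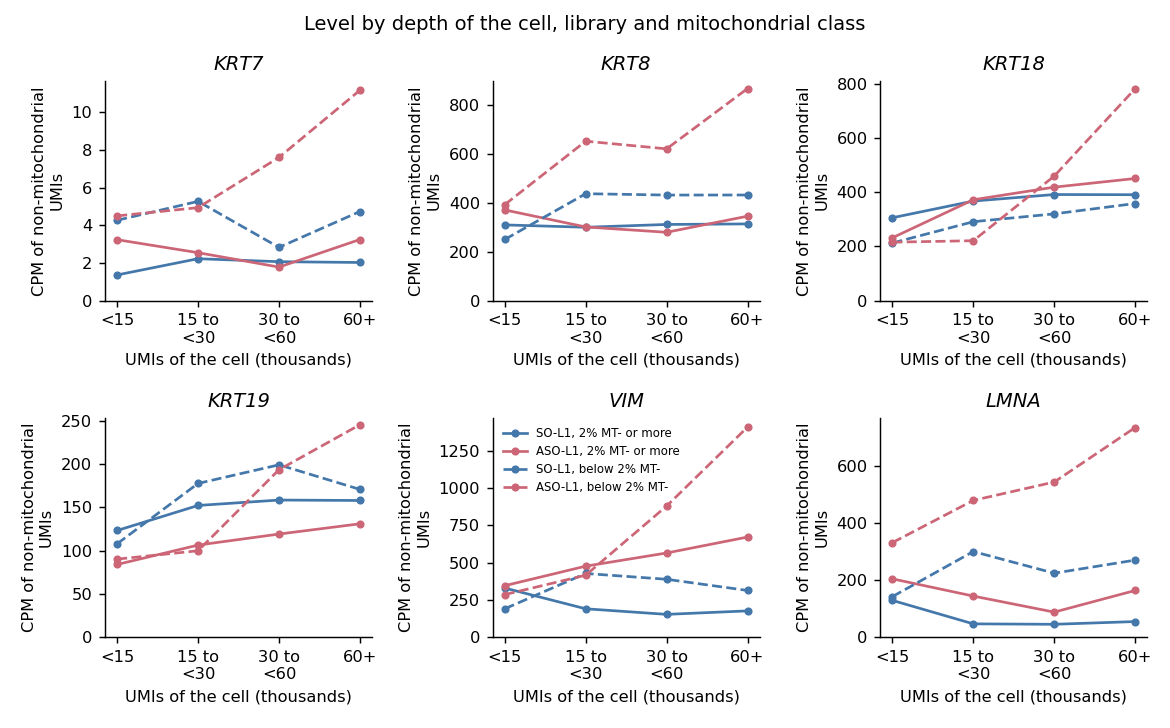
Level of each gene in CPM (of non-mitochondrial UMIs) by the number of non-mitochondrial UMIs of the cell (4 ranges), for ordinary cells (solid lines) and low-mitochondrial cells (dashed) of SO-L1 (blue) and ASO-L1 (red). Counting intervals are not drawn. The dashed red line of VIM goes from 286 to 1407 with depth, and the solid lines of VIM separate the libraries above 15000 UMIs.

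Within a library, LMNA differed most between the classes among the members. In SO-L1 it was at 48.4 CPM in ordinary and 236 in low-mitochondrial cells, a ratio of 4.89 (4.76 to 5.02). In ASO-L1 it was at 125 and 631, a ratio of 5.05 (4.99 to 5.11). LMNA was thus about as many times higher in low-mitochondrial cells of either library, and its ASO-L1 ordinary level lay between the SO-L1 classes.

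VIM was 2.30 times (2.26 to 2.34) higher in low-mitochondrial cells of SO-L1, from 162 to 372, and 1.80 times (1.79 to 1.81) higher in those of ASO-L1, from 611 to 1099. Without shared sequences the ASO-L1 ratio of VIM was 0.674 (0.660 to 0.688), on the other side of 1, and with cells weighted equally it was 1.46. In SO-L1 VIM was at 2.41 without shared sequences. The direction of the VIM difference between classes in ASO-L1 therefore depended on which cells were counted.

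KRT7 was 1.68 times (1.42 to 2.00) higher in low-mitochondrial SO-L1 cells and 3.69 times (3.37 to 4.04) in those of ASO-L1. KRT8 had ratios of 1.36 (1.34 to 1.38) and 2.38 (2.36 to 2.40), and KRT19 of 1.19 (1.16 to 1.22) and 1.70 (1.67 to 1.72), both called in ASO-L1 and not in SO-L1. KRT18 went opposite ways, at 0.813 (0.800 to 0.826) in SO-L1 and 1.39 (1.38 to 1.40) in ASO-L1, neither called. Whether the class differences differ between the libraries was not tested, as each has no replicate. Without shared sequences KRT18 in ASO-L1 was at 0.648 (0.631 to 0.667) and KRT19 at 1.05, while KRT8 at 1.95 and KRT7 at 2.70 kept their calls. In all, 3 members were called higher in SO-L1, where 19.9% of 19452 genes were higher and 6.32% lower, and 5 in ASO-L1, where 27.1% of 21455 genes were higher and 12.8% lower. The median log2 ratio over all genes was 0.14 in ASO-L1, and setting it to 0 changed none of these calls.

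Along finer ranges of the MT- share, LMNA dropped at a different point from VIM in the ASO-L1 library. LMNA was at 447 CPM in the 306 ASO-L1 cells of 2% to under 4% MT-, and at 186 in those of 4% to under 6%. VIM was at 1002 and 964 in the same cells, at 630 at 6% to under 8%, and at 332 at 8% to under 12%. From 2% to 12% MT-, ASO-L1 levels of VIM and LMNA were thus higher in the ranges of lower MT- share. Outside that span the order did not hold throughout. ASO-L1 VIM was at 708 at 1% to under 2%, and LMNA went from 70.7 at 8% to under 12% to 110 at 12% to under 20%. In SO-L1 VIM went from 340 at 2% to under 4% to 134 at 8% to under 12%, and LMNA from 113 to 45.7. KRT18 went the other way in SO-L1, from 288 to 399, and KRT8 stayed between 308 and 333. These ranges were chosen after the classes had been compared, and counts of ranges with few cells carry wider intervals.

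**Figure D4:**
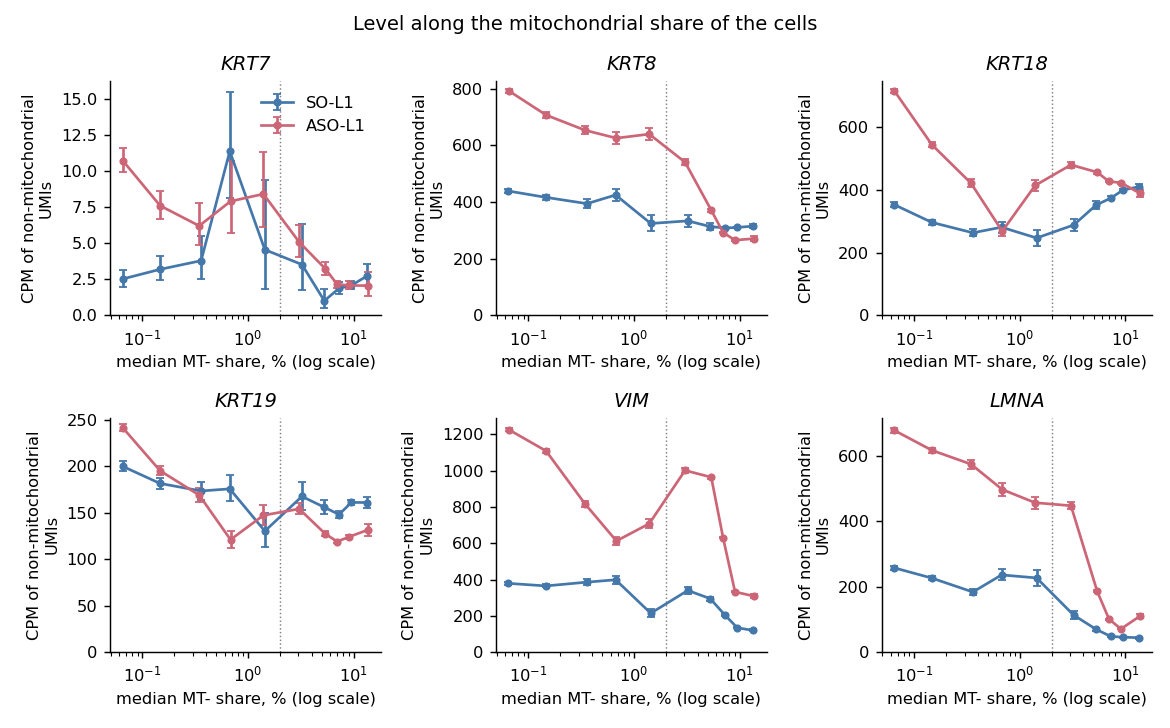
Level of each gene in CPM (of non-mitochondrial UMIs) against the median MT- share of 10 ranges of cells (log axis), with 95% Poisson counting intervals, for SO-L1 (blue) and ASO-L1 (red). The dotted line marks the 2% division. In ASO-L1, LMNA goes from 447 to 186 between the ranges either side of 4%, and VIM from 964 to 630 between those either side of 6%.

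The balance of the keratin pair differed between the classes in both libraries. There were 1.33 KRT8 UMIs per KRT18 UMI in low-mitochondrial and 0.799 in ordinary SO-L1 cells, and 1.23 and 0.719 in those of ASO-L1. VIM UMIs per UMI of the pair were 0.504 and 0.231 in SO-L1, and 0.821 and 0.823 in ASO-L1. With all kept cells, VIM per UMI of the pair thus differed by class in the control library and was nearly equal in the other. Without shared sequences it was 0.579 in low-mitochondrial and 1.02 in ordinary ASO-L1 cells, so the near equality does not hold there, and 0.514 and 0.224 in SO-L1. KRT8 UMIs per KRT18 UMI were then 2.09 and 0.694 in ASO-L1, and 1.35 and 0.798 in SO-L1.

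To compare single cells, each was thinned to 8000 non-mitochondrial UMIs, which left out 654 SO-L1 and 529 ASO-L1 shallower cells. Leaving aside KRT7, which few cells held, KRT8 and KRT19 were the most evenly spread members in ordinary SO-L1 cells. KRT8 had a UMI in 89.3% and KRT18 in 90.3% of cells, with variances of 1.20 and 1.64 times the mean, where 1 is the value of pure counting. In ordinary ASO-L1 cells the shares were 84.8% and 91.9% and the variances 1.99 and 2.03 times the mean. KRT19 had a UMI in 68.7% and 57.5% of ordinary SO-L1 and ASO-L1 cells, with variances of 1.20 and 1.31 times the mean. KRT7 had one in 1.38% and 1.87%. Free RNA can give a UMI to a cell without the transcript, and no cell type here is known to lack these transcripts, so that background was not measured.

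VIM was uneven from cell to cell. In ordinary cells it had a UMI in 53.9% (SO-L1) and 74.9% (ASO-L1) of cells, and the top 10% of cells held 48.2% and 40.1% of VIM UMIs. Its variance was 3.60 times the mean in SO-L1 and 7.68 times in ASO-L1. At least 20 thinned VIM UMIs were found in 3 of 4345 ordinary SO-L1 cells (0.069%), against 204 of 6320 ordinary ASO-L1 cells (3.23%, interval 2.81% to 3.69%). In low-mitochondrial cells it was 9 of 1554 (0.579%) and 225 of 2235 (10.1%, 8.85% to 11.4%). High-VIM cells were thus found in both classes of ASO-L1 and hardly at all in SO-L1, while the ASO-L1 median count in ordinary cells was 2 and the SO-L1 median 1.

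After thinning, LMNA was detected in a minority of ordinary cells and in most low-mitochondrial cells. It had a UMI in 27.8% and 43.3% of ordinary SO-L1 and ASO-L1 cells, and in 58.9% and 81.5% of low-mitochondrial cells. At least 10 thinned LMNA UMIs were found in 2 of 4345 and 40 of 6320 (0.633%) ordinary cells, and in 63 of 1554 (4.05%) and 315 of 2235 (14.1%) low-mitochondrial cells. Before thinning, the LMNA levels differed in the same order, but most cells of every class held a UMI. The unthinned shares were 71.4% and 88.5% of ordinary SO-L1 and ASO-L1 cells, and 77.3% and 89.9% of low-mitochondrial ones.

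KRT18 had its widest spread in low-mitochondrial cells. Its share of cells with a UMI was below that in ordinary cells, at 77.5% in SO-L1 and 77.0% in ASO-L1, although the ASO-L1 level was higher. Its variance there was 6.23 and 10.1 times the mean, and the top 10% of SO-L1 low-mitochondrial cells held 39.6% of its UMIs. That share was 46.8% among low-mitochondrial cells of ASO-L1, and 24.8% and 25.9% among the ordinary cells of the libraries. At least 20 thinned KRT18 UMIs were found in 65 of 2235 (2.91%, 2.25% to 3.69%) of these cells, in 9 of 1554 in SO-L1, in 9 of 6320 ordinary ASO-L1 cells and in 0 of 4345 ordinary SO-L1 cells, where a count of 0 allows a share of up to 0.069% (3 counts of the total). KRT18 UMIs were thus spread less evenly over low-mitochondrial than over ordinary cells in either library. KRT8, its partner, had a UMI in 87.8% and 92.2% of low-mitochondrial cells, with variances of 3.55 and 4.00 times the mean.

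From cell to cell the members varied together more in low-mitochondrial than in ordinary cells. Pearson correlations of log thinned counts, given as a description, share the library and the depth. KRT8 with KRT18 had r of 0.15 (4345 cells) and 0.17 (6320) in ordinary SO-L1 and ASO-L1 cells, and 0.42 (1554) and 0.41 (2235) in low-mitochondrial ones. In ordinary SO-L1 cells no other pair of members passed 0.1. In ordinary ASO-L1 cells KRT8 with LMNA had 0.31, VIM with LMNA 0.29 and KRT8 with VIM 0.20. In low-mitochondrial ASO-L1 cells KRT8 with LMNA had 0.55, KRT18 with VIM 0.49 and KRT18 with KRT19 0.47, against 0.37, 0.21 and 0.22 in SO-L1.

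Over ordinary cells no gene of 8515 searched reached an r of 0.2 with a member in both libraries. The highest lower value of the 2 libraries was 0.18, for ANXA2 with VIM. Over low-mitochondrial cells, examined after that, the 5 genes most like LMNA out of 8656 were S100A6 (SO-L1 r 0.58, ASO-L1 r 0.62), SFN (0.55 and 0.55), ALPG (0.52 and 0.53), TAGLN2 (0.52 and 0.55) and ANXA2 (0.49 and 0.63). S100A6 is a calcium-binding protein, SFN is the 14-3-3 sigma protein of epithelia, and ANXA2 is a membrane-binding annexin. TAGLN2 and ANXA2 also led for VIM, at 0.34 and 0.52 and at 0.35 and 0.44. By the lower r of the 2 libraries, KRT8 and KRT18 each had the other as the most alike gene. In ASO-L1 alone that r, 0.41, was below those of KRT8 with LMNA (0.55) and of KRT18 with VIM (0.49).

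Cells with a UMI of TPRX1, CER1 or IL24 were set against the rest of their library and class. TPRX1 is a homeobox gene of embryonic genome activation, CER1 a secreted antagonist of Nodal, BMP and Wnt signals in early endoderm and mesendoderm, and IL24 a cytokine. TPRX1 marked 78 low-mitochondrial and 77 ordinary cells in SO-L1, and 436 and 364 in ASO-L1. CER1 marked 193 and 374, and 1113 and 2037. IL24 marked 56 and 12, and 684 and 341. In ASO-L1 low-mitochondrial cells 186 TPRX1 cells also held CER1 and 150 held IL24, so the groups overlap. Cells with a UMI were deeper in most groups, for example 54713.5 against 42563 non-mitochondrial UMIs at the median for TPRX1 in ASO-L1 low-mitochondrial cells.

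TPRX1 cells were marked by LMNA and not by VIM. LMNA was at 597 CPM with TPRX1 and 215 without in low-mitochondrial SO-L1 cells, a ratio of 2.78 (2.65 to 2.92). In ASO-L1 it was at 895 and 557 in low-mitochondrial cells (1.61, 1.58 to 1.63), and at 326 and 110 in ordinary cells (2.96, 2.89 to 3.04). In ordinary SO-L1 cells it was at 54.5 and 48.2 (1.13, 0.986 to 1.29), not called. VIM was called in none of the 4 groups, with ratios of 0.997, 0.756, 0.993 and 0.845 in the same order. KRT7 was called higher in low-mitochondrial SO-L1 cells (2.60, from 28 UMIs) and in ordinary ASO-L1 cells (2.01), and the latter was at 1.41 without the 5% of cells with most UMIs. KRT8, KRT18 and KRT19 lay between 0.778 and 1.41 and were not called.
Of the members, 2 were called higher in TPRX1 cells of low-mitochondrial SO-L1, where 7.21% of 15684 genes were higher and 4.35% lower. It was 1 in low-mitochondrial ASO-L1 (7.25% of 17727 genes higher, 24.6% lower), 2 in ordinary ASO-L1 (7.99% of 20013 higher, 1.48% lower) and 0 in ordinary SO-L1 (2.16% of 18316 higher, 1.29% lower). None was called lower. With TPRX1 cells taken at 3 or more UMIs, VIM was called lower in low-mitochondrial ASO-L1 cells at 0.588 and KRT19 at 0.641.

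CER1 cells were marked by VIM in all 4 groups. VIM was at 569 CPM with CER1 and 344 without in low-mitochondrial SO-L1 cells (1.65, 1.60 to 1.71), and at 260 and 153 in ordinary ones (1.70, 1.64 to 1.75). In ASO-L1 it was at 1409.6 and 747 in low-mitochondrial cells (1.89, 1.86 to 1.91), and at 989 and 406 in ordinary ones (2.44, 2.42 to 2.46). The 406 in ordinary ASO-L1 cells without a CER1 UMI was still above the 153 in those of SO-L1. In low-mitochondrial ASO-L1, where VIM followed depth, CER1 cells were deeper, at a median of 52865 against 37936 non-mitochondrial UMIs. In ordinary SO-L1 the medians were 40578 and 40904.5. The part of depth in these VIM ratios was not tested. LMNA was called only in ordinary ASO-L1 cells, at 211 and 78.1 (2.71, 2.65 to 2.76), and had ratios of 1.20 to 1.23 in the others. At 3 or more CER1 UMIs LMNA was also called in both SO-L1 classes, at 1.93 and 1.96. KRT7 was called higher in low-mitochondrial SO-L1 (1.97) and ordinary ASO-L1 cells (2.28), and KRT8 in ordinary ASO-L1 cells (1.57).
Called members were 2 in low-mitochondrial SO-L1, where 2.58% of genes were higher and 2.98% lower, and 1 in ordinary SO-L1 (2.12% higher, 1.77% lower). They were 1 in low-mitochondrial ASO-L1 (1.89% higher, 16.1% lower) and 4 in ordinary ASO-L1 (8.75% higher, 13.1% lower), and none was called lower. KRT7 in SO-L1, at 1.36, and KRT8 in ordinary ASO-L1, at 1.48, lost their calls without shared sequences.

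IL24 cells had all 6 members higher in the low-mitochondrial SO-L1 library, where there were 56 of them. Ratios were 6.69 (4.38 to 9.90) for KRT7, 3.34 (3.14 to 3.56) for LMNA, 2.41 (2.28 to 2.55) for VIM, 2.26 (2.08 to 2.46) for KRT19, 2.02 (1.90 to 2.13) for KRT8 and 1.59 (1.47 to 1.71) for KRT18, where 16.5% of genes were higher and 8.13% lower. These IL24 cells were shallower than the others, at a median of 25245.5 against 33839 non-mitochondrial UMIs.
In ASO-L1, KRT7, KRT8 and LMNA were called in both classes. Ratios were 2.04, 1.62 and 1.60 in low-mitochondrial cells, where 10.7% of genes were higher and 28% lower, and 2.29, 1.80 and 3.67 in ordinary ones, where 11.1% were higher and 5.06% lower. VIM was at 1313 against 997 CPM (1.32) and at 877 against 592 (1.48), not called. Without shared sequences KRT8 and LMNA in low-mitochondrial cells were at 1.47 and 1.45, and KRT7 and KRT8 in ordinary cells at 1.41 and 1.44, below the fold. With the IL24 UMI taken after thinning, KRT7, KRT8 and LMNA in low-mitochondrial cells were at 1.21, 1.44 and 1.39. Ordinary SO-L1 had 12 IL24 cells, too few for a ratio.

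**Figure D5:**
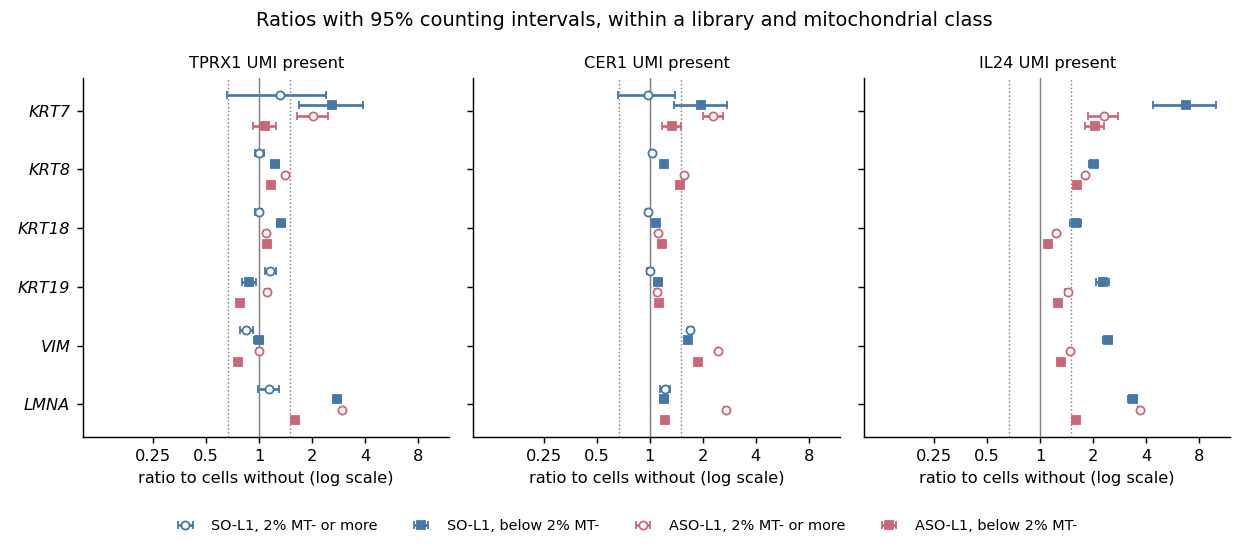
Ratio (log axis) of each gene's level in cells with a UMI of TPRX1, CER1 or IL24 to its level in the other cells of the same library and class, with 95% counting intervals, for ordinary cells (open circles) and low-mitochondrial cells (filled squares) of SO-L1 (blue) and ASO-L1 (red). Dotted lines mark 1.5-fold. LMNA lies right of 1.5 in 3 of the 4 TPRX1 groups and VIM in none, while VIM lies right of 1.5 in all 4 CER1 groups.

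Of the other keratins with enough UMIs, most were called higher in ASO-L1 over all kept cells. There 16% of all genes were higher and 18% lower. The limit of 100 UMIs is on both libraries together, so a gene low in SO-L1 could enter only through a high ASO-L1 count. The number called is therefore partly set by that limit. Of 24 other type II keratins 5 reached the limit and all 5 were called higher in ASO-L1. KRT75, a hair-follicle keratin, was at 0.0749 and 3.95 CPM (ratio 52.7), and KRT6A, a keratin of stressed skin, at 0.0749 and 1.02 (13.7). These 2 genes had 19 UMIs each in SO-L1, against 1855 and 481 in ASO-L1. KRT15, a type I keratin, had 45 and 397. Of 23 other type I keratins 5 were measured and 4 called higher, among them KRT16 at 1.35 and 7.97 (5.91) and KRT10, a keratin of stratified skin, at 59.98 and 91.4 (1.52). KRT17, a stress keratin, was not called between libraries over all kept cells, at 10.7 and 11.5. Among ordinary cells it was called higher in ASO-L1 (3.35, 2.78 to 4.05), and among low-mitochondrial cells it was not called (0.914). It was 64.2 times higher in low-mitochondrial than in ordinary SO-L1 cells, at 43.9 and 0.683, and 17.5 times in ASO-L1, at 40.1 and 2.29. In TPRX1 cells of ASO-L1 KRT17 was at 0.351 of its level in the others among low-mitochondrial cells, but at 3.23 times it among ordinary cells. In IL24 cells KRT17 was at 3.84 and 9.48 times its level in the others of the same classes.

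Few of the other filament and nuclear lamina genes were called between libraries over all kept cells, where 16% of all genes were higher and 18% lower. Of 11 other type III, type IV and lens filament genes 1 was called higher over all kept cells, PRPH at 5.70 and 12.5 (2.19), and NES, the neural stem cell filament nestin, was at 121 and 139 (1.14). Of 17 lamina and nuclear envelope genes 2 were called higher, TOR1AIP1, a lamin-binding protein, at 1.74 and SYNE3, a nesprin, at 1.97, and 1 lower. Their median log2 ratio was 0.07. In low-mitochondrial cells, where 22.9% of all genes were higher and 24.9% lower, 4 of the 10 filament genes measured were called higher and none lower, at a median log2 ratio of -0.02. Among them were INA, the neuronal filament alpha-internexin, at 27.5 and 59.4 CPM (2.16) and DES, the muscle filament desmin, at 5.28 and 9.06 (1.71). Of 16 lamina and nuclear envelope genes measured there, 3 were called higher and 4 lower. LMNB2, the gene of lamin B2, was at 35.2 in SO-L1 and 83.2 in ASO-L1 (2.36), and BANF1, which links chromatin to the lamina, at 248 and 148 (0.597).

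Genes of filament anchors and of epithelial and mesenchymal identity went several ways. Of 17 plakin and desmosome genes 1 was called higher and 2 lower in ASO-L1, with DST, a plakin that ties filaments to junctions, at 213 and 109 (0.510). Of 15 epithelial identity genes 3 were higher and 2 lower. EPCAM, an epithelial adhesion protein, was at 215 and 343 (1.60), CLDN4, a tight junction claudin, at 3.76 and 12.2 (3.24), and GRHL2, an epithelial transcription factor, at 34.6 and 18.6 (0.537). Of 11 genes of the mesenchymal transition 10 were measured, 8 higher and none lower, with SNAI1, a repressor of epithelial genes, at 1.12 and 9.39 (8.36), SPARC, a matrix protein, at 44.1 and 89.6 (2.03), and FN1, fibronectin, at 44.1 and 50.5 (1.15). These counts stand beside the 16% of genes higher and 18% lower over all kept cells.

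Marker lists of other cell types moved with the members in several comparisons, and their part in the results was not tested. The 15 markers of the 8-cell stage in the tables summed to 25.0 and 132 CPM in ordinary SO-L1 and ASO-L1 cells and to 217 and 926 in low-mitochondrial ones. Endoderm and organiser markers summed to 56.2, 91.7, 65.0 and 176 in the same order, of which CER1 made up 3.20, 42.96, 8.23 and 121.1. Fibroblast and smooth muscle markers summed to 73.6, 120, 124 and 289, of which TAGLN made up 9.90, 34.06, 18.03 and 181. The endoderm differences between libraries thus lay largely in CER1, and the low-mitochondrial fibroblast difference largely in TAGLN. In each class 7 endoderm markers were called higher for ASO-L1 and 1 lower. Of 6 fibroblast markers measured in low-mitochondrial cells, 2 were higher and 1 lower. Markers of stratified epithelium, KRT10 among them, summed to 72.0, 128, 165 and 512, of which SFN made up 9.49, 34.5, 105 and 415, and KRT1 was at 0 in all. Trophectoderm markers summed to 55.5, 50.9, 69.2 and 68.1, with CGB5 at 0 in both SO-L1 classes, amnion markers to 20.6, 35.8, 49.2 and 82.2, and neural markers to 652, 525, 795 and 853. Trophectoderm is the early lineage known for KRT7, KRT8, KRT18 and KRT19, and 9 of its 14 listed markers were measured over all kept cells. Of these, 5 were called higher and 1 lower for ASO-L1, beside 16% and 18% of all genes. Low-mitochondrial cells had 3 of 6 measured markers higher, and ordinary cells 2 of 7, with 1 lower in each class. The summed trophectoderm level over all kept cells was not higher for ASO-L1, at 55.1 CPM against 58.7 for SO-L1.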

How the data were processed

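UMI counts per gene and cell barcode were deposited for 2 libraries, 1 per group, made by the authors with 10x Genomics 3-prime v3 chemistry and, per the submitters' processing notes, Cell Ranger 7.1.0 and hg38. The annotation used, the calling of cells and the handling of introns are not stated there (not given in the sources used here). From these deposited counts, UMIs were summed over the cells of a group and scaled to a non-mitochondrial total of 1000000 (CPM), with Python 3.11.15, NumPy 2.4.6, SciPy 1.17.1, pandas 2.3.3. Kept SO-L1 cells held 273349662 UMIs and kept ASO-L1 cells 499106701. With 1 library per group no test between groups was possible, and Clopper-Pearson intervals cover only the error of counting. A sum of 0 takes a floor of 3 counts. The ratio and its interval were tested on simulated counts. Those were independent Poisson counts per gene, the model behind the interval. That test could not show how the uneven spread of UMIs between cells bears on the intervals.

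The members and all gene lists were chosen with earlier results of these data known. Named are the 6 members and, per list, up to 2 genes with the largest ratio and up to 2 with most UMIs. Genes alike to a member were those with r of at least 0.2 in ordinary cells of both libraries, at a mean thinned count of at least 0.1. The genes alike in low-mitochondrial cells were named after their values were seen. No doublet caller was run, and leaving out the 5% of cells with most UMIs was 1 of 27 alternatives. Marker cells in groups under 20 were not compared. Of 16 listed 8-cell markers 15 were in the tables.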

Additional observations from a re-analysis of the deposited data

Results flagged for a closer look

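KRT18 went opposite ways between the classes of cells of the 2 libraries. Its low-mitochondrial level was 0.813 of the ordinary level in SO-L1 and 1.39 times it in ASO-L1. The difference between these ratios was not tested, since each library has no replicate. Among ASO-L1 low-mitochondrial cells the KRT18 level was 782 CPM at 60000 or more non-mitochondrial UMIs and 216 under 15000. Without barcode sequences found in both libraries, the ASO-L1 ratio of KRT18 was 0.648, on the same side of 1 as in SO-L1.

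KRT19 went opposite ways between the libraries in the 2 classes. ASO-L1 over SO-L1 was 1.12 in low-mitochondrial cells and 0.788 in ordinary cells, and the difference was not tested. At matched depth the low-mitochondrial ratio of KRT19 ran from 0.562 to 1.44, and without shared sequences it was 0.625. Neither KRT18 nor KRT19 passed 1.5-fold in these 4 ratios.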

How the results depend on the processing

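No paired analysis was possible because each group has 1 library. The called direction of VIM and LMNA between libraries over all kept cells held under the 11 alternatives run for it. Leaving out every barcode sequence found in both libraries, which removes 5308 of 9084 ASO-L1 cells, changed most. Low-mitochondrial ASO-L1 over SO-L1 then gave 0.912 for KRT18 and 0.625 for KRT19, with 2 members higher in place of 5 and 1 lower in place of 0. Low-mitochondrial over ordinary ASO-L1 gave 0.648 for KRT18 and 0.674 for VIM, with 3 members higher in place of 5 and 1 lower in place of 0. Among marker cells there it gave 2 higher and 1 lower for TPRX1 (low-mitochondrial ASO-L1), 1 and 2 higher for CER1 (low-mitochondrial SO-L1 and ASO-L1), and 1 higher for IL24 in both ASO-L1 classes in place of 3. The cause was not tested.

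At matched depth, ASO-L1 over SO-L1 in low-mitochondrial cells had 2 members higher under 15000 UMIs (3 without barcodes with over 10 times more UMIs in the other library, where VIM was at 1.72), 1 higher and 1 lower at 15000 to under 30000, and 3 higher at 30000 to under 60000. The middle range gave 0.759 for KRT18, 0.562 for KRT19 and 0.973 for VIM. Ordinary cells under 15000 had 1 member higher in place of 2, and 2 without those barcodes. VIM per UMI of the KRT8 and KRT18 pair in ASO-L1, 0.821 and 0.823 by class, was 0.579 and 1.02 without shared sequences. These ranges and combinations were added after seeing the data.

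With cells weighted equally, 3 members were higher between the ASO-L1 classes in place of 5, and CER1 cells had 1 (SO-L1) and 3 (ASO-L1) higher among low-mitochondrial cells in place of 2 and 1. Scaling to the median, leaving out the 5% deepest cells and taking 3 or more CER1 UMIs each gave 2 for low-mitochondrial ASO-L1. Without the deepest cells ordinary ASO-L1 TPRX1 cells had 1 in place of 2. Thinned counts gave 1 in place of 2 for TPRX1 and for CER1 in low-mitochondrial SO-L1. At 3 or more marker UMIs, CER1 cells had 4 and 2 higher in the SO-L1 classes, TPRX1 cells of low-mitochondrial ASO-L1 had 2 lower, and IL24 cells of ordinary ASO-L1 had 5 higher. With the marker read after thinning, TPRX1 cells had 4 higher in low-mitochondrial SO-L1 and 1 lower in ASO-L1, CER1 cells 1 higher in low-mitochondrial SO-L1, and IL24 cells 0 and 5 higher in the ASO-L1 classes; the 0 came without any p-value, as there is 1 library per group.

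In barcodes that the filter left out, VIM and LMNA had ratios of 0.647 and 0.806, but 3.66 and 1.99 in those whose sequence was in 1 library only. Depth limits KRT7 most, and its low-mitochondrial ratio below 30000 UMIs rests on 38 UMIs or fewer a group.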

Other observations

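Barcodes outside the kept cells also held the members. Of 6517 left-out SO-L1 barcodes 5043 had a sequence also found in ASO-L1, with a median of 819 UMIs. Of these, 5039 had over 10 times more UMIs under that sequence in ASO-L1. The VIM level of the 5043 barcodes was 681 CPM, against 211 in kept SO-L1 cells and 729 in kept ASO-L1 cells. The 1474 left-out SO-L1 barcodes with a sequence in 1 library only had VIM at 65.5, and the 1778 such ASO-L1 barcodes at 240. LMNA was at 236 in the shared SO-L1 barcodes and at 57.2 in the others, against 92.2 in kept SO-L1 and 248 in kept ASO-L1 cells. KRT8 was at 423 and 152, against 337 and 415. The levels of the shared barcodes thus lay nearer those of kept ASO-L1 cells, and the source of their RNA was not tested. KRT7 had 26 UMIs in the shared and 9 in the other left-out SO-L1 barcodes.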
